A study of Mus musculus with 2 samples.

Results

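The genes described here are the interleukin-6 family of cytokines and receptors, as they were measured by single-cell RNA sequencing (scRNAseq) of the early mouse rib callus. The 9 genes are the ligands *Il6*, *Il11*, *Lif*, *Osm* and *Clcf1*, the receptor subunits *Il6st*, *Il6ra* and *Osmr*, and *Socs3*, an intracellular inhibitor of the pathway. They were chosen by name, and all 9 are among the 31054 features of the count matrices. There were 2 libraries, 1 per genotype, each made from the pooled repair calluses of 3 animals of 8 to 12 weeks at day 4 after a resection of 3 mm of rib. Control animals were *Sox9*:CreER;*R26*:tdT;*Smo* flox/+ and *Smo* cKO animals were *Sox9*:CreER;*R26*:tdT;*Smo* flox/flox, and both carried the tamoxifen-inducible Cre and the tdTomato reporter and received 3 tamoxifen injections from day -7 to day -5. *Smo* encodes the transducer of the Hedgehog (Hh) signal. Recombination was limited to cells that expressed *Sox9* at the time of the injections and to their descendants, so that most cells of the callus were not targeted in either library, and control animals kept 1 intact *Smo* allele in targeted cells. With 1 pooled library per genotype there were no replicates, no test compares the genotypes, and all intervals given are 95% intervals that cover counting error only.

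The family is held together by gp130, the receptor subunit encoded by *Il6st*, which each of the ligands named above engages together with a more restricted subunit. IL-6 uses the receptor encoded by *Il6ra*, oncostatin M uses that encoded by *Osmr*, and LIF, IL-11 and CLCF1 use others. Engaged gp130 activates JAK kinases and STAT3, and STAT3 induces *Socs3*, whose product binds gp130 and ends the signal. In bone, these cytokines act on cells of the osteoblast lineage and, through them, on osteoclasts, and oncostatin M is known as a product of macrophages and other myeloid cells.

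Cells with at least 200 detected genes and under 10% of their counts of unique molecular identifiers (UMIs) on mitochondrial genes were kept, 10057 control and 9507 *Smo* cKO cells, with medians of 8367 and 9092 UMIs per cell. They were sorted into classes by gates on the geometric mean level of marker genes. Connective cells were the largest class, with 6377 control and 5150 *Smo* cKO cells, followed by macrophages with 1345 and 1750. Cells past the gates of 2 compartments, 1158 in all and thus candidate doublets, were left out of the classes, and no doublet caller was run. *Smo* itself stood at 19.1 UMIs per 1000000 UMIs of the class (CPM) in control and 12.4 CPM in *Smo* cKO connective cells, a log2 ratio, *Smo* cKO over control, of -0.62. The classes carried their own markers with 2 exceptions. The monocyte gate was led by *F10*, *Mpo* and *Plac8* and so also took in granulocyte precursors. It also carried *Siglech*, a plasmacytoid dendritic cell gene, at 233 CPM in control and 151 CPM in *Smo* cKO, compared with 118 and 52.0 CPM in dendritic cells. The remaining hematopoietic cells, here called other hematopoietic, were led by *Cxcl14*, *Lpl* and *Arg1*, with none of the fixed markers of a named class in the lead.

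The libraries shared 599 barcodes among kept cells, which is 5.96% of control and 6.30% of *Smo* cKO cells. In 67.4% of these pairs both sides fell in the same class, against 37.6% from the class sizes, and the median depth was 806 UMIs on the control side and 30939 on the *Smo* cKO side. Without these cells the connective log2 ratios were -0.13 for *Il11*, -0.16 for *Clcf1*, -0.40 for *Il6ra*, -0.032 for *Il6st*, -0.033 for *Osmr* and 0.38 for *Socs3*, and those of *Socs3* were 1.87 in dendritic cells, 1.22 in the monocyte gate and 1.32 in muscle. Those of *Il6*, *Lif* and *Osm* and of *Socs3* in macrophages are given beside each result. Values for subsets, groups and clusters of a class include these cells. Interferon-stimulated transcripts also stood apart between the libraries. *Isg15*, such a transcript, was at 12.6 CPM in control and 161 CPM in *Smo* cKO connective cells and at 45.3 and 220 CPM in macrophages.

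The family's transcripts were divided between the connective and the hematopoietic compartment of the callus. *Il6*, *Il11*, *Lif*, *Osmr* and *Il6st* were mostly connective, *Osm* was mostly hematopoietic, and *Il6ra* and *Socs3* were found in both. Connective cells held 91.3% of all *Il6* UMIs of the control library and 90.5% of those of the *Smo* cKO library, 96.5% and 89.0% of those of *Il11*, and 88.6% and 86.5% of those of *Lif*. Gated hematopoietic cells held 79.7% and 80.7% of the *Osm* UMIs. These shares depend on the number and depth of the cells of each class. CPM is scaled to the UMIs of the class and so does not rise with the number of cells. Deep cells weigh more in it, and within connective cells it differed between depth ranges.

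**Figure D1:**
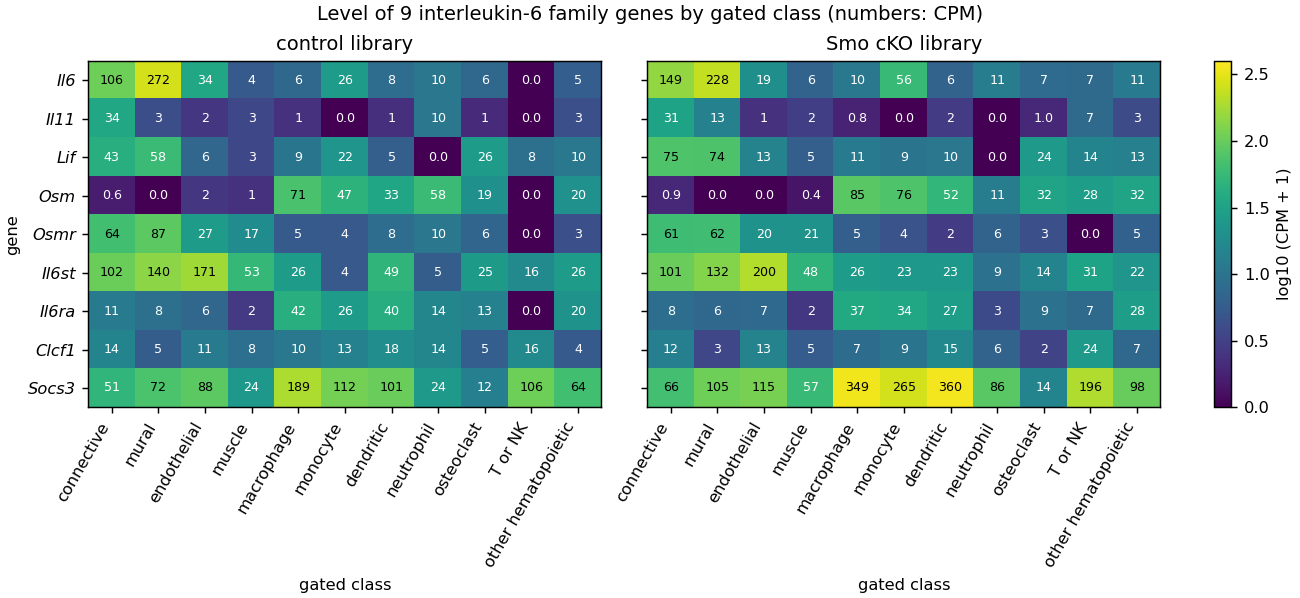
Level of the 9 genes (rows) in 11 gated classes (columns), with the control library on the left and the *Smo* cKO library on the right. Each square gives the CPM over the summed UMIs of the class, and the color is log10 of CPM plus 1. *Il6* and *Lif* were bright in connective and mural cells and *Osm* in macrophages. *Socs3* was brightest in dendritic cells, macrophages and the monocyte gate of the *Smo* cKO library, at 360, 349 and 265 CPM, and lowest there in osteoclasts, at 13.8 CPM.

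*Il6*, the pleiotropic cytokine that gives the family its name, lies at chr5:30013114-30019981 on the plus strand (GRCm38). Of the 11 classes compared, its level was highest in mural cells, the pericytes and smooth muscle cells of vessels. They had 272 CPM (interval 232 to 316) in control and 228 CPM (196 to 265) in *Smo* cKO. Connective cells came next, at 106 CPM (104 to 109) and 149 CPM (147 to 152), below mural cells beyond counting error in both libraries. The mural class was small, with 56 and 55 cells, and these cells carried 5 connective matrix genes at 90.0% and 84.6% of the connective level. Its border was not sharp, as 132 cells scored within 20% of the mural threshold, beside 130 past it. An unsupervised cluster led by *Rgs5*, a mural marker, held 186 control and 154 *Smo* cKO cells. Of its cells 61.2% were connective by the gates, so cells with mural genes are also in the connective class.

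To estimate the *Il6* level that free connective RNA would give in other classes, the 5 matrix genes *Postn*, *Col5a2*, *Bgn*, *Fbn1* and *Col6a3* were measured in each class as a share of their connective level. In macrophages this share was 8.01% and 7.55%, which corresponds to 8.51 and 11.3 CPM of *Il6*, and *Il6* was measured at 6.35 and 10.0 CPM. T or NK cells had 0 *Il6* UMIs in control, which allows up to 24.4 CPM, and 2 UMIs in *Smo* cKO. The monocyte gate was above its estimate, at 25.9 CPM from 6 UMIs and 55.9 CPM from 31 UMIs against 7.62 and 9.34 CPM. So were endothelial cells in control, at 34.4 CPM from 22 UMIs against 9.51 CPM, while in *Smo* cKO they had 18.9 CPM from 14 UMIs against 13.2 CPM. Muscle cells were below theirs, at 4.45 and 5.78 CPM against 12.6 and 24.6 CPM. The few mast or basophil cells, 10 over both libraries, held 0.309% of the control *Il6* UMIs.

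Within connective cells *Il6* was unevenly spread. An *Il6* UMI was found in 39.3% of control and 43.2% of *Smo* cKO connective cells, at median depths of 11080 and 13973.5 UMIs, compared with 1.78% and 3.14% of macrophages, at 2462 and 3176.5 UMIs. After thinning each cell to 1000 UMIs, which left out 301 control and 165 *Smo* cKO connective cells and 89 and 63 macrophages with fewer, the connective shares were 9.68% and 11.3% and those of macrophages 0.478% and 1.19%. The 10% of connective cells with the most *Il6* UMIs held 63.1% of them in control and 66.0% in *Smo* cKO. At least 10 *Il6* UMIs were counted in 182 control and 372 *Smo* cKO cells, with up to 57 and 65 in a cell.

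*Il6* was higher in *Smo* cKO than in control connective cells, with a log2 ratio of 0.49 (0.45 to 0.53), and 93.5% of the genes with at least 50 UMIs had a lower ratio. The ratio was 0.50 without the shared barcodes. It depended on cell depth. In connective cells with under 5000 UMIs *Il6* was at 208 CPM in control and 188 CPM in *Smo* cKO, a log2 ratio of -0.14 whose interval, -0.38 to 0.09, includes 0. In cells with at least 20000 UMIs it was at 77.3 and 144 CPM, a ratio of 0.90 (0.83 to 0.97). With the upper limit of 2000 genes per cell that the study's methods give, which keeps the shallow cells, *Il6* was at 200.7 CPM in control and 199.3 CPM in *Smo* cKO. Connective cells without an *Isg15* UMI had a ratio of 0.26, from 106 to 128 CPM, and those with one a ratio of 0.64. A UMI of a gene is more readily found in deep cells. The part of depth in this split, and in the splits by a detected UMI given below, was not tested.

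*Lif*, the leukemia inhibitory factor, lies at chr11:4257557-4272514 on the plus strand, next to *Osm* at chr11:4236420-4241026 on the same strand, with 16530 bases between them. The neighbors were found in different cells. *Lif* was at 42.7 CPM (41.3 to 44.1) in control and 74.8 CPM (73.0 to 76.7) in *Smo* cKO connective cells, where *Osm* was at 0.564 and 0.942 CPM. Mural cells had *Lif* at 57.9 and 73.5 CPM, and their *Smo* cKO interval, 55.7 to 95.3, overlapped that of connective cells. Of the hematopoietic classes compared, osteoclasts had the highest *Lif* in both libraries, 26.2 CPM from 73 UMIs in control and 23.8 CPM from 50 UMIs in *Smo* cKO. Free connective RNA would give 2.85 and 4.61 CPM there. The monocyte gate, at 21.6 and 9.02 CPM from 5 UMIs each, had intervals that overlapped those of osteoclasts in both libraries. In neutrophils *Lif* had 0 UMIs in both libraries, which allows up to 14.5 CPM in control and 8.60 CPM in *Smo* cKO.

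Of the 9 genes *Lif* had the highest ratio in connective cells. Its log2 ratio was 0.81 (0.75 to 0.87), 97.3% of the genes had a lower one, and it was 0.81 again without the shared barcodes. A *Lif* UMI was found in 27.3% of control and 43.8% of *Smo* cKO connective cells, and in 3.51% and 6.72% after thinning. In macrophages, at 9.27 and 10.9 CPM against 3.42 and 5.65 CPM from free connective RNA, the shares were 2.38% and 3.26% before and 0.876% and 1.01% after thinning. The ratio was above 0 in all 4 depth ranges, from 0.27 (-0.16 to 0.70) under 5000 UMIs to 1.12 between 5000 and 10000 UMIs, and it was 0.77 in cells without and 0.89 in cells with an *Isg15* UMI. In osteoclasts the ratio of *Lif* was -0.14 (-0.68 to 0.40), so that no difference was detectable there at this depth, and it ranged from -0.46 to 0.80 over the processing alternatives.

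*Il11*, a cytokine known for its part in fibroblast activation and bone turnover, is on chromosome 7 (chr7:4772373-4782859, minus strand). Its connective UMIs were concentrated in few cells. Connective cells had 34.0 CPM in control and 31.2 CPM in *Smo* cKO, while mural cells had 3.22 and 12.9 CPM from 2 and 10 UMIs and every other class had 10 or fewer UMIs in each library. The 10% of connective cells with the most *Il11* held 90.8% and 83.8% of its connective UMIs, and the top 1% alone held 47.3% and 35.4%. In cells with at least 5 *Il11* UMIs, 123 in control and 118 in *Smo* cKO, a group picked after its values were seen, the genes highest relative to the other connective cells included *Inhba*, which encodes the activin A subunit, *Ank*, *Cxcl3* and *Il1rl1*. Over all connective cells *Il11* was slightly lower in *Smo* cKO, with a log2 ratio of -0.13 (-0.20 to -0.05). With at most 2000 genes per cell the direction turned, to 0.65.

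*Osm*, which encodes oncostatin M, was a transcript of myeloid cells. Macrophages had 70.7 CPM (62.5 to 79.7) in control and 84.7 CPM (77.7 to 92.2) in *Smo* cKO. The monocyte gate had 47.4 and 75.7 CPM, dendritic cells 32.9 and 52.0 CPM, and osteoclasts 19.4 and 31.9 CPM, and the interval of the monocyte gate overlapped those of macrophages and dendritic cells in both libraries, whereas macrophages and dendritic cells were apart. An *Osm* UMI was found in 14.3% of control and 20.5% of *Smo* cKO macrophages, against 0.627% and 1.36% of the much deeper connective cells. Mural cells had 0 *Osm* UMIs in both libraries, which allows up to 4.82 and 3.87 CPM.

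*Osm* was slightly higher in *Smo* cKO macrophages, with a log2 ratio of 0.26 (0.05 to 0.48), or 0.25 without the shared barcodes. The ratio was 0.72 (0.18 to 1.27) in osteoclasts and 0.68 (0.05 to 1.34) in other hematopoietic cells, and 0.66 in dendritic cells, where its interval, -0.17 to 1.49, includes 0. With osteoclasts taken from unsupervised clusters the ratio was 0.060. T or NK cells had 0 UMIs in control, which allows up to 24.4 CPM, and 27.6 CPM from 8 UMIs in *Smo* cKO. Neutrophils were the exception, at 57.8 CPM from 12 UMIs in control and 11.5 CPM from 4 UMIs in *Smo* cKO.

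*Clcf1*, which encodes a neurotrophic ligand, was low in all classes. Its level was 13.9 and 12.4 CPM in connective cells, a log2 ratio of -0.16 (-0.29 to -0.04) that turned to 0.62 with at most 2000 genes per cell and to 0.085 with equal weight per cell. Dendritic cells had 17.7 and 15.4 CPM and T or NK cells 16.2 and 24.1 CPM, from 2 to 14 UMIs each, and their intervals overlapped those of connective cells.

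*Osm* and the gene of its receptor were found in different compartments. *Osmr*, the oncostatin M receptor subunit (chr15:6813577-6874969, minus strand), was a connective and mural transcript, at 63.5 CPM (61.8 to 65.3) in control and 61.5 CPM (59.8 to 63.2) in *Smo* cKO connective cells and 86.8 and 61.9 CPM in mural cells. It was at 26.6 and 20.2 CPM in endothelial and 17.4 and 20.8 CPM in muscle cells. In macrophages, the main class of *Osm*, *Osmr* was at 4.50 and 5.08 CPM, where free connective RNA would give 5.09 and 4.64 CPM, and T or NK cells had 0 UMIs in both libraries, which allows up to 24.4 and 10.3 CPM.

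*Il6st*, the gp130 gene, was the most widely found receptor gene. Endothelial cells had 171 CPM (140 to 206) and 200 CPM (169 to 235), mural cells 140 and 132 CPM, connective cells 102 and 101 CPM, and muscle cells 52.9 and 48.1 CPM. Macrophages were lower, at 26.5 and 25.5 CPM, but above the 8.16 and 7.59 CPM that free connective RNA would give. Over all connective cells neither receptor differed by much between the libraries, with log2 ratios of -0.02 (-0.06 to 0.02) for *Il6st* and -0.05 (-0.10 to 0.01) for *Osmr*. Both ratios depended on cell depth. That of *Osmr* was -0.41 (-0.78 to -0.04) under 5000 UMIs, -0.31 (-0.46 to -0.17) from 5000 to 10000 and 0.10 (0.01 to 0.19) from 20000. That of *Il6st* was -0.14 (-0.26 to -0.03) from 5000 to 10000 UMIs and 0.13 (0.06 to 0.20) from 20000. Over the processing alternatives the *Osmr* ratio ranged from -0.31 to -0.03.

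*Il6ra*, the binding subunit for IL-6 (chr3:89864059-89913196, minus strand), had its highest levels in phagocytes. Macrophages had 41.8 and 37.1 CPM and dendritic cells 40.5 and 26.9 CPM, with overlapping intervals. In connective cells the level was 10.6 CPM (9.90 to 11.3) in control and 7.80 CPM (7.20 to 8.43) in *Smo* cKO, where free macrophage RNA, estimated from *Lyz2*, *Ctss*, *Cybb* and *Alox5ap*, would give 0.230 and 0.223 CPM. Since connective cells were many and deep, they held 69.5% and 57.2% of all *Il6ra* UMIs. The connective log2 ratio of *Il6ra* was -0.44 (-0.59 to -0.29), and 7.22% of the genes had a lower one. It was -0.035 with at most 2000 genes per cell and -0.12 in cells without an *Isg15* UMI.

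Fewer hematopoietic *Il6st* counts were found in the *Smo* cKO library in 2 classes. Dendritic cells had 49.4 CPM from 39 UMIs in control and 23.1 CPM from 12 UMIs in *Smo* cKO, a log2 ratio of -1.10 (-2.16 to -0.13). Osteoclasts had 25.1 CPM from 70 UMIs and 13.8 CPM from 29 UMIs, a ratio of -0.86 (-1.54 to -0.22). These classes were small, with 275 and 147 dendritic cells and 285 and 159 osteoclasts. With classes taken from unsupervised clusters the ratio was -0.30 in dendritic cells and 0.20 in osteoclasts, so the direction in osteoclasts depends on how the class is drawn.

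*Socs3*, the feedback inhibitor of gp130 signaling, lies at chr11:117966079-117970047 on the minus strand. By CPM it was higher in the *Smo* cKO library in all 11 classes. With equal weight per cell, however, the ratio was -0.29 in endothelial cells, -0.23 in mural cells and -0.39 in osteoclasts. With classes from unsupervised clusters it was -0.10 in other hematopoietic cells. Among classes with at least 50 *Socs3* UMIs, the largest log2 ratio was in dendritic cells. Neutrophils, below that minimum, had 24.1 CPM from 5 UMIs in control and 86.0 CPM from 30 UMIs in *Smo* cKO. Their ratio was 1.84, with a wide interval of 0.46 to 3.56. Macrophages had 189 CPM (176 to 204) in control and 349 CPM (334 to 363) in *Smo* cKO, a log2 ratio of 0.88 (0.76 to 1.00) that 97.9% of the genes stayed below. Dendritic cells had 101 and 360 CPM, a ratio of 1.83 (1.44 to 2.23), and the monocyte gate 112 and 265 CPM, a ratio of 1.24 (0.63 to 1.90). Connective cells had 50.8 and 66.0 CPM, a ratio of 0.38 (0.32 to 0.44). This ratio differed between depth ranges. It was 0.64 under 5000 UMIs, 0.10 (-0.03 to 0.23) from 5000 to 10000, 0.52 from 10000 to 20000 and 0.70 from 20000. Muscle cells, a class that holds satellite cells and myocytes, had 23.6 and 57.2 CPM, a ratio of 1.28 (0.85 to 1.73). In osteoclasts *Socs3* was low in both libraries, at 12.2 and 13.8 CPM. The ratio was 0.40 in muscle cells with gate thresholds raised 2-fold and 0.59 in monocytes taken from unsupervised clusters. The summed neutrophil markers of the monocyte gate were at 5258 CPM in control and 1304 CPM in *Smo* cKO, and their part in its ratio was not tested.

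**Figure D2:**
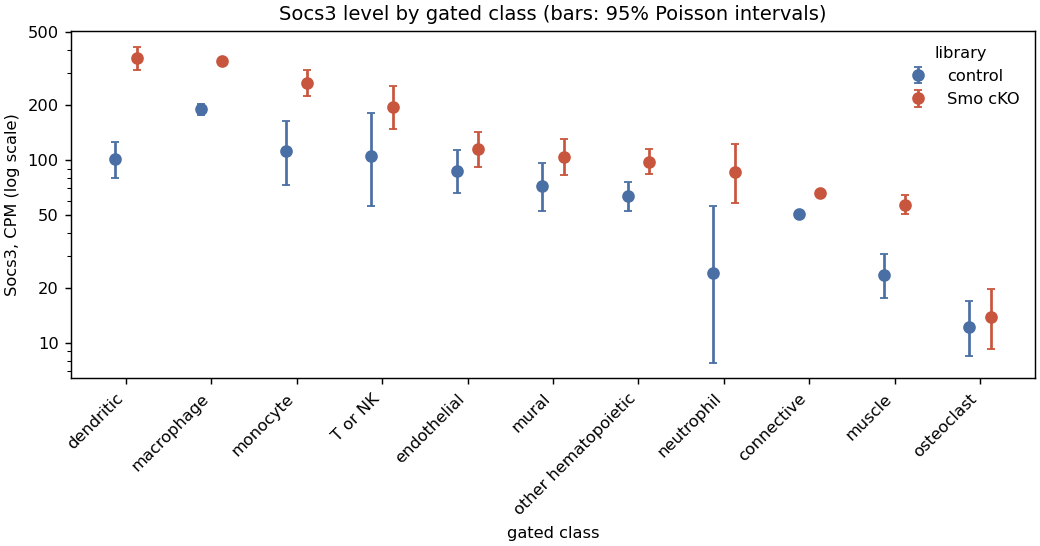
*Socs3* level (CPM, log axis) by gated class in the control and *Smo* cKO libraries, with bars for exact 95% Poisson intervals. The *Smo* cKO point lies above the control point in all 11 classes, and the intervals are apart in dendritic cells, macrophages, the monocyte gate, neutrophils, muscle, other hematopoietic and connective cells.

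Few members were at least 2-fold apart between the libraries. Among genes with at least 50 UMIs in a class over both libraries, connective cells had 1.78% that were higher in *Smo* cKO by 2-fold or more and 1.17% that were lower by as much, and of the 9 members 0 were. In macrophages 1.71% and 0.646% of genes were past 2-fold, and 0 of the 7 members counted. In muscle the shares were 1.87% and 0.729%, and 1 of 3 members, *Socs3*, was higher. In the monocyte gate they were 4.00% and 1.04%, and 1 of 2 members, *Socs3*, was higher. In dendritic cells they were 2.77% and 1.06%, and of 3 members *Socs3* was higher and *Il6st* lower. Mural cells had shares of 3.30% and 1.03% with 0 of 5 members, endothelial cells 2.30% and 1.19% with 0 of 2, osteoclasts 1.28% and 0.454% with 0 of 5, other hematopoietic cells 1.48% and 0.447% with 0 of 4, and T or NK cells 3.08% and 0.879% with 0 of 1. In neutrophils the shares were 2.74% and 4.70%, and 0 members had enough UMIs.

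The *Socs3* difference in macrophages was found in each subset examined. These subsets were picked after the class values were seen. In macrophages with a UMI of *Mrc1*, a resident macrophage marker, *Socs3* was at 209 CPM in control and 385 CPM in *Smo* cKO, and in those without at 175 and 324 CPM, with log2 ratios of 0.89 in both. *Spp1*, which encodes osteopontin, was at 1648 CPM in control and 4330 CPM in *Smo* cKO macrophages, and the *Socs3* ratio was 1.01 in cells with and 0.91 in cells without an *Spp1* UMI. Cells with and without an *Isg15* UMI had ratios of 0.78 and 0.98. Across 3 depth ranges the ratio was between 1.04 and 1.13, and without the shared barcodes it was 0.87. An *Socs3* UMI was found in 31.4% of control and 53.7% of *Smo* cKO macrophages, and in 17.1% and 28.5% after thinning.

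Dendritic and muscle cells showed the same direction within subsets, though the makeup of the dendritic class also stood apart. *Siglech*, a plasmacytoid dendritic cell gene, was at 118 CPM in control and 52.0 CPM in *Smo* cKO dendritic cells, *Xcr1* at 30.4 and 7.70 CPM, and *Il1b* at 1223 and 2954 CPM, and the part of this makeup in the *Socs3* difference was not tested. Without cells that had a *Siglech*, *Xcr1* or *Clec9a* UMI, *Socs3* was at 114 and 390 CPM, a ratio of 1.77. In muscle cells *Socs3* was at 28.1 CPM in control and 82.6 CPM in *Smo* cKO cells with a UMI of *Pax7*, the satellite cell factor, and at 21.6 and 42.2 CPM in those without. In connective cells *Socs3* was at 62.5 and 64.7 CPM in those with an *Isg15* UMI and at 49.8 and 67.8 CPM in those without.

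The promoters of *Il6*, *Lif* and *Socs3* are shown because these members had connective intervals above 0, as did *Osm*, which had no promoter sequence in the table. They run from 250 bases before to 50 bases after the RefSeq start (GRCm38.p6), at chr5:30012864-30013163 on the plus strand for *Il6*, chr11:4257318-4257617 on the plus strand for *Lif* and chr11:117969317-117969616 on the minus strand for *Socs3*, and 7 of the 9 members had such a sequence. Capitals mark matches, on either strand, to 4 motifs: TTCNNNGAA and TTCCNGGAA, forms of the STAT site, the NF-kappaB site as GGG, any 2 bases and TTTCC, and TGANTCA, the AP-1 site.
Il6: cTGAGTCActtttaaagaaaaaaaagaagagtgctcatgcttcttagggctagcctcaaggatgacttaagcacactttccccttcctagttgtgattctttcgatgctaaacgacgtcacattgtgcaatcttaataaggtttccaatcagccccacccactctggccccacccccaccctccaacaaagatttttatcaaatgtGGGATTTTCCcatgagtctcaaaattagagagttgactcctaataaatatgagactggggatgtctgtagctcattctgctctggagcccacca
Lif: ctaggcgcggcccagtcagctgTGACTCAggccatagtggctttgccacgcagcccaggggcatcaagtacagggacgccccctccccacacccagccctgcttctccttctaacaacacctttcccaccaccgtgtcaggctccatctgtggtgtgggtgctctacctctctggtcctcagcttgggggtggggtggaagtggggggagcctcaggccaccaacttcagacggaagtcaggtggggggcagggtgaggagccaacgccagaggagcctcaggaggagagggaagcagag
Socs3: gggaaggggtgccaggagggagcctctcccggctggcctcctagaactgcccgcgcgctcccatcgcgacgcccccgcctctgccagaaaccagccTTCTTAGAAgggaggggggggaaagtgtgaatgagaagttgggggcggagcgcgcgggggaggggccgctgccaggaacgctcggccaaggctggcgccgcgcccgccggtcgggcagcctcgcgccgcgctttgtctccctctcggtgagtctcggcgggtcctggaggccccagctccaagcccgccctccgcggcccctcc
The *Socs3* promoter holds TTCNNNGAA at 154 bases before the start, which is in 8.30% of all 32851 promoters of this length, and its match reads TTCTTAGAA. The *Il6* promoter holds the NF-kappaB form at 44 bases before the start, as GGGATTTTCC, a form found in 1.63% of promoters, and TGANTCA at 249 bases before it, found in 7.81%. The *Lif* promoter holds TGANTCA at 228 bases before the start. This form is also in an *Il11* promoter, at 98 bases before the start, and in the *Osmr* promoter just after the start. The connective log2 ratios of these members were -0.13 and -0.05. TTCCNGGAA, found in 1.15% of promoters, is in none of the member promoters, and all of its matches are also matches to TTCNNNGAA. These are matches of letters and not measured binding sites.

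Connective cells of the callus are mixed, so the members were also measured in 8 groups, each made of the 10% of connective cells with the highest level of a short gene list, both libraries together. The groups overlap, and they hold unequal numbers of cells of the libraries, such as 755 control and 398 *Smo* cKO cells in the adventitial group. *Il6* was highest in cells high in *Sfrp4*, *Eln*, *Col14a1* and *Ptx3*, at 330 CPM in control and 356 CPM in *Smo* cKO. Adventitial cells, which carry *Pi16*, *Dpp4* and *Cd34*, had 295 and 257 CPM. The marrow stromal group, from a list with *Cxcl12* and *Lepr*, had 207 and 275 CPM. In *Smo* cKO its interval overlapped that of adventitial cells. *Il6* was lowest in skeletogenic cells, high in *Fmod*, *Acan* and *Sox9*, at 16.8 and 34.5 CPM.

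*Il11* had another distribution. In control it was highest in cells high in *Tnc*, *Inhba*, *Timp1* and *Loxl2*, at 143 CPM, and low in adventitial cells, at 10.6 CPM. In *Smo* cKO these levels were 89.8 and 43.7 CPM, with log2 ratios of -0.67 (-0.79 to -0.55) and 2.05 (1.63 to 2.48). In skeletogenic cells *Il11* was at 27.7 and 12.9 CPM and in osteoblast cells, high in *Bglap* and *Ibsp*, its log2 ratio was -0.74. The *Il11* ratio over all connective cells thus pools groups with ratios on both sides of 0.

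*Lif* was higher in *Smo* cKO in all 8 groups, with log2 ratios from 0.72 to 1.22. *Socs3* was higher in 5 of them, with ratios of 0.91 (0.69 to 1.13) in the *Tnc* group, from 24.5 to 45.9 CPM, and 0.79 (0.61 to 0.98) in skeletogenic cells, from 48.1 to 83.4 CPM. In adventitial cells *Socs3* was lower in *Smo* cKO, at 112 and 79.6 CPM, a ratio of -0.49 (-0.68 to -0.30). *Osmr* was at 110 and 114 CPM in the *Sfrp4*-*Eln* group and at 28.0 and 35.1 CPM in skeletogenic cells, and *Il6ra* was at 25.7 and 22.3 CPM and at 3.96 and 6.30 CPM in the same groups. In adventitial cells *Il6ra* was at 25.3 and 14.6 CPM, a log2 ratio of -0.79 (-1.24 to -0.36).

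**Figure D3:**
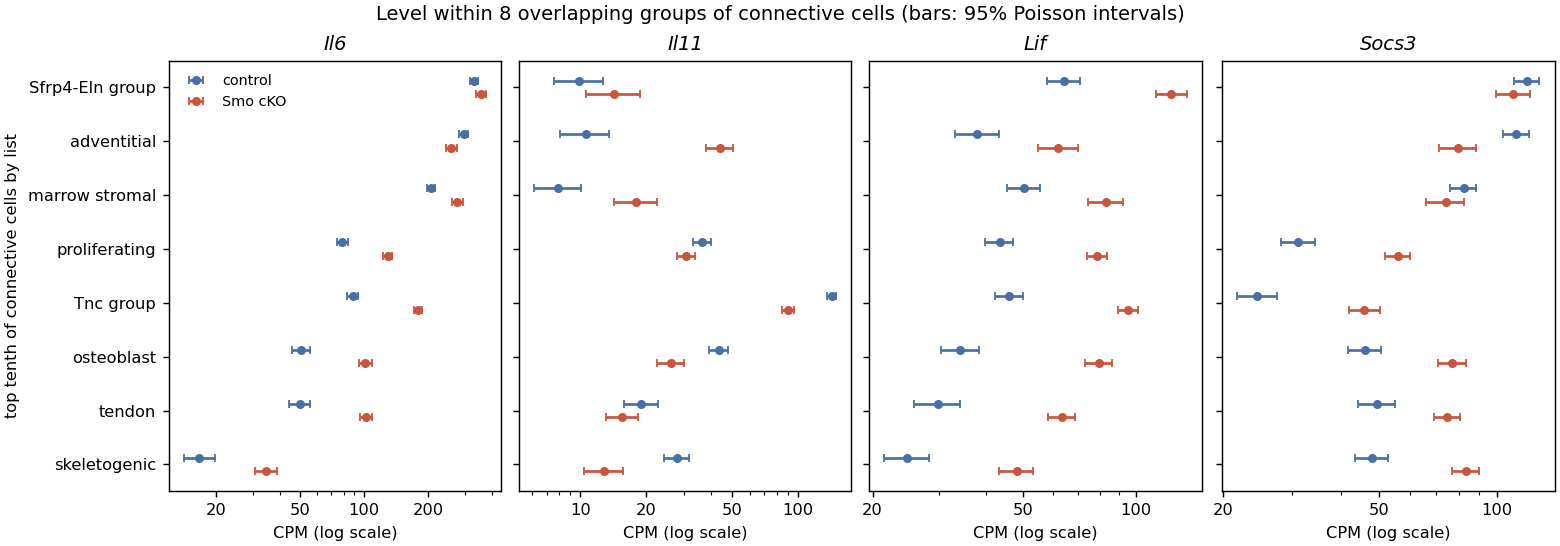
Level of *Il6*, *Il11*, *Lif* and *Socs3* (CPM, log axes) in 8 overlapping groups of connective cells, each the highest 10% for a gene list, in control and *Smo* cKO, with bars for exact 95% Poisson intervals. *Lif* was higher in *Smo* cKO in each group, while *Il11* was lower in the *Tnc* group, from 143 to 89.8 CPM, and higher in the adventitial group, from 10.6 to 43.7 CPM.

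Clusters made without the member genes gave a view that does not rest on the gene lists. Of 17 connective clusters, 13 had at least 50 cells in each library and were at least 90% connective by the gates. *Il6* was higher in *Smo* cKO in 12 of the 13, with a median log2 ratio of 0.67 and a range from -0.02 to 1.47, and *Lif* was higher in 13 of 13, with a median of 0.84 and a range from 0.19 to 1.75. *Socs3* was higher in 10, with a median of 0.46, and *Il11* in 5. In the cluster led by *C3*, *Pi16* and *Clec3b*, *Il6* was at 391 CPM in control and 620 CPM in *Smo* cKO, *Lif* at 49.0 and 165 CPM, and *Socs3* at 131 and 150 CPM. In the cluster led by *Ibsp* and *Mmp13*, *Il6* was at 18.1 and 32.8 CPM and *Socs3* at 30.1 and 69.7 CPM.

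The libraries filled these clusters unevenly. The cluster led by *Cfd*, *Hp* and *Saa3* held 841 control and 84 *Smo* cKO cells, and that led by *Gzme* and *Gzmd* held 135 and 659. In the former *Socs3* was lower in *Smo* cKO, at 89.7 and 71.2 CPM, the only cluster of the 13 whose interval lay below 0. The number of cells in a cluster and the level within it both enter the connective totals. Of the macrophage clusters, 2 could be compared in the same way, and *Socs3* was at 151 and 288 CPM in the cluster led by *Fabp4* and *Gpnmb* and at 256 and 681 CPM in the cluster led by *Cd163*.

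**Figure D4:**
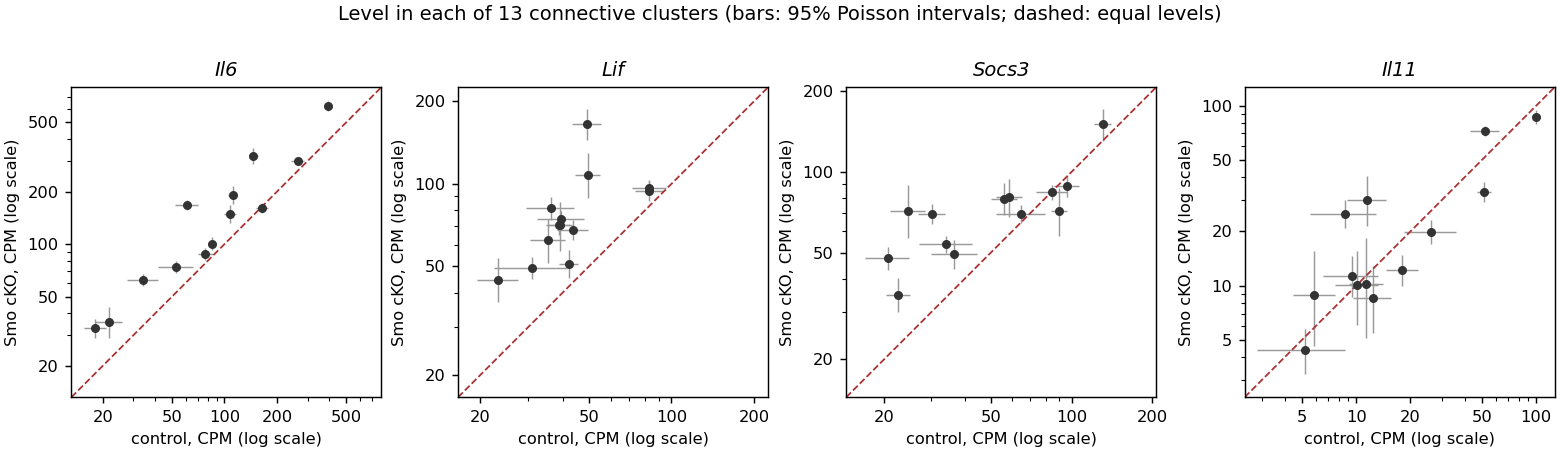
Level in control (x axis) and *Smo* cKO (y axis) of *Il6*, *Lif*, *Socs3* and *Il11* in 13 connective clusters, in CPM on log axes, with bars for exact 95% Poisson intervals and a dashed line where both libraries are equal. All 13 points lie above the line for *Lif* and 12 for *Il6*, while those for *Il11* lie on both sides.

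Cells with many *Il6* UMIs were also higher in *Lif*. In connective cells with at least 10 *Il6* UMIs, a group picked after its values were seen, *Lif* was at 115 CPM in control and 153 CPM in *Smo* cKO, compared with 39.9 and 66.2 CPM in the other connective cells. *Osmr* was at 97.4 and 85.5 CPM in these cells and at 62.2 and 58.8 CPM in the others. These cells are chosen in part by their depth.

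Few connective cells carried a UMI of the tdTomato reporter, which marks the *Sox9* lineage, 48 in control and 112 in *Smo* cKO. In them *Il6* was at 92.7 and 148 CPM, with a log2 ratio of 0.68 (0.30 to 1.07), and *Lif* at 38.4 and 90.8 CPM, with a ratio of 1.24 (0.68 to 1.85). Connective cells without such a UMI had ratios of 0.49 and 0.80. The tdTomato-detected cells were deeper, with medians of 13950.5 UMIs in control and 20112.5 in *Smo* cKO, against 11066 and 13823 in the others. The part of depth in these ratios was not tested. *Socs3* was at 51.6 and 60.1 CPM in the tdTomato-detected cells, a ratio of 0.22 (-0.30 to 0.77). Since the reporter was rarely detected, cells without a UMI can also belong to the lineage.

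The other genes of the pathway were described by lists. In connective cells *Stat3*, the main transducer of gp130 signals, named after its value was seen, was at 106 CPM in control and 101 CPM in *Smo* cKO. Of 11 inhibitors 0 were past 2-fold in either direction, and of the 4 other receptors with enough UMIs 0 were, beside 1.78% higher and 1.17% lower of all genes counted.

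Textbook response genes of gp130 and STAT3 went both ways. This list was written with earlier results of these data known, so its counts describe the listed genes and are not independent evidence. Of 25 listed, 24 were counted in connective cells, 0 were past 2-fold higher and 6 past 2-fold lower in *Smo* cKO, with a median log2 ratio of 0.03 beside 0.01 over all genes counted. Of all genes counted there, 1.78% were past 2-fold higher and 1.17% past 2-fold lower. The 4 of the lower genes with the most UMIs were *Saa3*, an acute-phase protein gene, at 177 and 57.1 CPM, the complement gene *C3* at 124 and 29.8 CPM, *Hp*, which encodes haptoglobin, at 120 and 21.6 CPM, and *Steap4*, which encodes a metalloreductase, at 35.1 and 11.6 CPM. *Hp* and *Saa3* were among the leading genes of a connective cluster with 841 control and 84 *Smo* cKO cells. *C3* and *Saa3* were among those of a cluster with 748 and 196. The part of this uneven makeup in their levels was not tested. In connective cells *Junb* was at 252 and 386 CPM and *Zfp36* at 96.6 and 159 CPM, 2 early response genes of the list that were named after their values were seen. Other genes known to respond to stress and cell dissociation were also higher in these cells, with log2 ratios of 1.59 for *Hspa1a* and 0.63 for *Egr1*, and a connective cluster led by *Hspa1a* and *Fos* held 197 control and 709 *Smo* cKO cells. Their part in the *Socs3* difference was not tested.

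Macrophages differed from connective cells in this list. There 21 of the genes were counted, 1 was at least 2-fold higher and 0 lower, and the higher one was *Saa3*, at 44.2 and 95.5 CPM. Of all genes counted in macrophages, 1.71% were past 2-fold higher and 0.646% lower. *Cish*, an inhibitor of the same family as *Socs3*, was at 2.65 and 6.35 CPM. *Il11ra1*, the IL-11 receptor gene, was at 13.5 and 5.39 CPM. In dendritic cells *Stat5a*, 1 of 7 transducers counted, *Ptpn6*, 1 of 3 inhibitors, and *Ccnd1*, 1 of 13 response genes, were at least 2-fold higher. In each of these lists 0 genes were past 2-fold lower. *Stat5a* was at 34.2 and 84.7 CPM from 27 and 44 UMIs, and *Ptpn6* at 49.4 and 117 CPM from 39 and 61 UMIs. Of all genes counted in dendritic cells, 2.77% were past 2-fold higher and 1.06% lower. The makeup of this class stood apart between the libraries, and its part in these ratios was not tested.

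Genes with the most similar pattern over classes were found by Pearson's r of log2(CPM + 10) over the 23 class-by-library values with at least 50 cells, which share the 2 libraries. For *Il6* these were *Pdgfrb*, with r = 0.917, *Runx1t1*, *Kcne4*, *Sox5* and *F3*, and *Pdgfrb* is also a marker used for the mural gate. For *Lif* they were *Il1rl2*, with r = 0.880, *Ak5*, *Agmo*, *Fkbp11* and *Ror2*. For *Osm* they were *Lrrc25*, with r = 0.939, *Tnfrsf13b*, *Ctss*, *Cd300c2* and *Naip5*, and for *Osmr* *Dcbld2*, with r = 0.969, *Fkbp9*, *Tgfb1i1*, *Sh3d19* and *Sparc*, the last a marker used for the connective gate.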

How the data were processed

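The libraries were made on the 10x Chromium platform from enzymatically dissociated callus cells after removal of dead cells, sequenced on an Illumina NextSeq, and aligned to mm10 by the authors with Cell Ranger 3.0.2. The authors deposited raw UMI counts per gene and barcode, without normalization, for 10747 control and 10512 *Smo* cKO barcodes with 105367110 and 112700220 UMIs. The members and gene lists were chosen with earlier results of these data known.

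Cells with at least 200 genes and under 10% of UMIs on the 13 mt- genes were kept. The upper limit of 2000 genes that the study's methods give was not applied, as 58.0% and 59.4% of these cells exceed it, but was run as an alternative. A cell entered a class when the geometric mean over the class markers of UMIs per 10000 plus 1 passed a threshold, set after the scores were seen. Cells past the gates of 2 compartments were left out (5.92%), except that the mural gate took precedence over the connective gate, and 437 cells passed no gate. B, erythroid, mast or basophil, epithelial or mesothelial and glial cells, under 50 in a library, were not compared.

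CPM is the summed UMIs of a gene over all UMIs of the class. Its interval is exact Poisson, that of a ratio is the exact conditional binomial one, and that of a share of cells is exact Clopper-Pearson. UMIs are molecules of 1 pooled library, so intervals cover counting error only, and the limit given with 0 UMIs is that of 3 counts. Shares were also computed after thinning cells to 1000 UMIs. Ratios across genes used those with at least 50 UMIs in the class. Genes named in the text are the members, and from each pathway list those at least 2-fold apart, at most 4 a list, with the exceptions stated, and some genes of these lists are not reported here. Clusters used 2000 variable genes without the members, 30 principal components, 20 neighbors and Leiden clustering at resolution 2. The count of genes past 2-fold and the intervals were run on simulated Poisson counts, the model on which the intervals rest. This checks the computation only. Uneven spread of UMIs between cells was not simulated, so the run does not show that the intervals are wide enough for such genes. Alternatives were the gene and mitochondrial limits, thresholds raised 2-fold, cells of 2 gates kept, classes from clusters, other scalings, equal weight per cell, thinning to 2000 UMIs, 200 UMIs as a minimum, and 1.5-fold. Leaving out shared barcodes, some dendritic cells or cells with an *Isg15* UMI was added after seeing the data. Gene coordinates are from GENCODE vM21, and promoters and their sequences from RefSeq on GRCm38.p6. Python 3.11.15 was used with numpy 2.4.6, scipy 1.17.1, pandas 2.3.3, scanpy 1.11.5, python-igraph 0.11.9 and matplotlib 3.10.9.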

Additional observations from a re-analysis of the deposited data

Results flagged for a closer look

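Within connective cells, 6 members had counting intervals on opposite sides of no difference in different groups. The log2 ratio, *Smo* cKO over control, of *Il6* was 1.04 in the skeletogenic and -0.20 in the adventitial group. That of *Il11* was 2.05 in the adventitial and -1.11 in the skeletogenic group. In the skeletogenic and the adventitial group the ratios were 0.32 and -0.27 for *Osmr*, 0.26 and -0.38 for *Il6st*, and 0.67 and -0.79 for *Il6ra*. For *Socs3* the ratio was 0.91 in the *Tnc* group and -0.49 in the adventitial group. The cluster led by *C3*, *Pi16* and *Clec3b*, which are in part markers of the adventitial group, had other ratios, 0.67 (0.55 to 0.78) for *Il6*, 1.37 for *Il11*, 0.20 for *Socs3*, 0.30 for *Il6ra*, 0.16 for *Il6st* and -0.14 for *Osmr*, where the intervals of the last 4 include 0. With 1 library per genotype these differences between groups were not tested. The adventitial group held 755 control and 398 *Smo* cKO cells, and the part of this uneven makeup in its ratios was not tested.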

How the results depend on the processing

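No paired analysis was possible because each genotype has 1 library and no result comes from a test. Of 41 member-by-class log2 ratios under 392 alternative values, 374 kept their direction and 352 stayed within the original counting interval. For the 23 ratios past 1.3-fold, 214 of 220 kept their direction. The 6 that did not were *Il6* in connective cells, given next, *Il6st* in osteoclasts (0.20) and *Socs3* in other hematopoietic cells (-0.10) with clusters as classes, *Il6ra* in other hematopoietic cells with raised gates (-0.48), and *Socs3* in endothelial (-0.29) and mural cells (-0.23) with equal weight per cell. The *Socs3* and *Osm* ratios in macrophages kept theirs throughout, from 0.83 to 0.96 and from 0.10 to 0.41. With at most 2000 genes per cell, the connective ratios were -0.010 for *Il6*, 0.65 for *Il11*, 1.23 for *Lif*, 0.62 for *Clcf1* and -0.087 for *Il6st*, the connective levels of *Il6* were 200.7 and 199.3 CPM, and *Socs3* in *Smo* cKO macrophages was at 384 CPM. With raised gates, *Il6* had 0.39 and *Il11* -0.025. With clusters as classes, *Il11* had -0.044. Scaled without mitochondrial, ribosomal protein and hemoglobin genes, *Il6* had 0.44 and *Il6st* -0.072. With equal weight per cell, *Il6* had 0.26, *Il11* 0.011, *Il6st* -0.073 and *Socs3* 0.29. Without cells with an *Isg15* UMI, *Il6* had 0.26, *Il11* -0.24 and *Socs3* 0.45. The cause was not tested. Thinned to 2000 UMIs, *Il6* was found in 15.4% and 17.5% of connective cells and *Socs3* in 27.3% and 41.6% of macrophages. With at least 200 UMIs, 0.561% of connective genes were past 2-fold lower, and 1.14% higher and 0.150% lower in macrophages. At 1.5-fold, 4.81% were higher and 4.24% lower in connective cells, 5.14% and 5.48% in macrophages, and 4 response genes were higher in connective cells and 2 higher and 2 lower in macrophages. Levels under about 10 CPM outside a gene's main class, and classes of under 100 cells, rest on few UMIs.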

Other observations

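Cells that passed no gate, 220 in control and 217 in *Smo* cKO, carried *Il11* at 21.4 CPM from 15 UMIs and 74.4 CPM from 119 UMIs, and *Lif* at 15.7 and 38.8 CPM. Cells past the gates of 2 compartments, left out of the classes, had *Il6* at 79.0 and 85.8 CPM, *Lif* at 39.0 and 63.3 CPM and *Socs3* at 69.6 and 93.3 CPM. A connective cluster led by *Serpinb2* and *Dlk1* held 2 control and 115 *Smo* cKO cells and could not be compared.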
